A study of Mus musculus with 6 samples.

Results

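Coenzyme Q, iron-sulfur clusters and lipoate are cofactors that mitochondria make for themselves. The 31 genes described here encode enzymes, scaffolds and carriers of their synthesis, and proteins that bind coenzyme Q or hold clusters. They were taken by symbol from a table of 24411 genes, and all 31 were present: 11 for coenzyme Q, 17 for iron-sulfur clusters and 3 for lipoate. Their transcripts were measured in the extensor digitorum longus (EDL), a hindlimb muscle of mainly fast-twitch fibres, of mice aged 50 weeks. In 3 mAktDKO mice, the floxed alleles of Akt1 and Akt2, kinases that act downstream of insulin, were deleted by Mlc1f-Cre. The 3 control mice were Akt1/2-floxed without Cre, and both groups were of the C57BL/6J background and carried the floxed alleles. Mlc1f-Cre is knocked into a myosin light chain locus that is active chiefly in fast fibres, and these whole-muscle counts do not show in which cells Akt1 and Akt2 were lost. The control mice carry the numbers 2 to 4 in the table and are named by these here.

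Coenzyme Q is a lipid that carries electrons between respiratory complexes. Its isoprenoid tail is made from mevalonate pathway products and joined to a benzoate ring, and the ring is then modified by a complex of Coq proteins on the inner membrane. Iron-sulfur clusters are built on the scaffold Iscu with sulfur from cysteine, and are then carried to client proteins that include respiratory complex subunits and aconitase. Lipoate is made while bound to the glycine cleavage H protein, by enzymes that include the iron-sulfur protein Lias, and is then transferred to pyruvate dehydrogenase and related complexes, where it is the swinging arm. In muscle, defects of these pathways are known causes of mitochondrial myopathy.

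The promoters of Glrx5, Isca1 and Nubpl are given first, each picked for the trait named below. Isca1 and Nubpl passed no threshold of adjusted p used here. RefSeq (GRCm38.p6, the sequence of mm10) had promoters of 300 bases for 28 of the 31 genes, all but Coq5, Hscb and Iscu. The 250 bases before the start site are printed 5′ to 3′ on the strand of the gene. Glrx5 had the smallest p among the 31 genes, and capitals mark CCAAT or its reverse complement ATTGG, letters that were chosen after the sequence was seen. Isca1 was the most abundant iron-sulfur gene by counts, and capitals mark matches to GABP and NRF1, factors known for nuclear genes of mitochondrial proteins. Nubpl had the lowest log2 fold change of the 31 genes, and capitals mark the reverse complement of a FoxO match, FoxO being the transcription factors that Akt keeps out of the nucleus.
Glrx5, chr12:105032368-105032617, plus strand: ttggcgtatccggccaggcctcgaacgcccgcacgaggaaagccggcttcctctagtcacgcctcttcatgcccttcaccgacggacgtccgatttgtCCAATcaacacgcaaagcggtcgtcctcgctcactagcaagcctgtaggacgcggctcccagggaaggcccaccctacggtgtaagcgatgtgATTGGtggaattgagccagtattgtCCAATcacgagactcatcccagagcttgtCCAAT
Isca1, chr13:59769790-59770039, minus strand: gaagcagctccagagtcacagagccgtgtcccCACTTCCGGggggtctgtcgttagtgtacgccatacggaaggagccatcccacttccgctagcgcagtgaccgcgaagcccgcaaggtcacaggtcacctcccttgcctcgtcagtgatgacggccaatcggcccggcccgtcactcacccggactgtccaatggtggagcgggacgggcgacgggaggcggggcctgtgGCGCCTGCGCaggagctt
Nubpl, chr12:52097496-52097745, plus strand: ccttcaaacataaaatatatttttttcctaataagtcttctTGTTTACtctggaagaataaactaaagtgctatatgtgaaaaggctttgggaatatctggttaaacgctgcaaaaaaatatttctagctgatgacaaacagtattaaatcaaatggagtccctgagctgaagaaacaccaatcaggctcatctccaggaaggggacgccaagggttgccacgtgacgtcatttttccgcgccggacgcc

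The Glrx5 promoter held CCAAT 4 times over both strands, and 0.840% of the 32851 mouse promoters of the same length held it at least as often. Because the letters were chosen after this sequence was seen, the share does not measure how unusual the promoter is. At least 1 CCAAT was in a promoter of 13 of the 28 genes, and of 37.5% of all genes with a promoter. Another 6 motifs were searched on both strands of the 300 bases. NRF1 (GCGC, then N, then TGCGC) was in the promoters of Cisd1, Coq3, Isca1 and Nfu1, 14.3% of the 28 genes against 5.19% of all genes with a promoter. GABP (CCGGAAGTG) was in those of Ciao1, Isca1 and Lipt1, 10.7% against 2.25%, and YY1 (AAGATGGCG) in those of Coq9 and Isca2, 7.14% against 1.64%. FoxO (GTAAACA) was in those of Cisd3, Iba57 and Nubpl, 10.7% against 4.05%. SREBP (TCACNCCAC) was in that of Coq4, 3.57% against 1.44%. The letters of ERR (TCAAGGTCA) were in 0 of the 28 windows and in 0.466% of all genes. No match overlapped one of another motif in these promoters, and 1 NRF1 match of Cisd1 reads the same on both strands. A match describes the letters of the window.

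Total estimated counts were between 13738795 and 15445523 per mouse. The floor of detection for counting error was taken as 3 counts, or 0.194 to 0.218 CPM by library totals without TMM. All other CPM here are counts scaled to a common library total scaled by TMM. All 31 genes lay above the floor of 3 counts and passed the filter on low counts in a fit of 12892 genes. No pair of mice agreed within sampling noise, with a chi-square of counts per degree of freedom of 7.64 to 69.9. Control mouse 2 stood apart, at 50.6 to 69.9 with the mAktDKO mice and 27.3 and 26.4 with control mice 3 and 4. Control mice 3 and 4 had 10.6 with each other. Akt2 had 51.3, 49.1 and 52.7 CPM in mAktDKO muscle against 172, 133 and 143 CPM in control muscle, with a log2 fold change of -1.55 (SE 0.11, edgeR adjusted p = 0.000923), while Akt1 had a log2 fold change of -0.25 (SE 0.080, edgeR adjusted p = 0.115). The labels number the samples and do not say whether litters or mice were shared, so p-values measure the spread between these 6 samples.

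Most of the 31 genes were lower in the mAktDKO mice, with small differences. The log2 fold change of mAktDKO over control mice was below 0 in 29 genes, against 47.5% of all genes tested, and above 0 in Iscu (0.0078) and Hscb (0.039). Its median was -0.23, while that of all genes tested was 0.017. Scaled by library totals instead of TMM, each of the 31 values was higher by 0.13 to 0.15 and the median of all genes was 0.16, so that Isca1 was at -0.10, Nfs1 at -0.14 and Coq9 at -0.18. Every mAktDKO mouse was lower than all control mice in 17 of the 31 genes (54.8%), against 16.6% of all genes, and the reverse held in 0 of the 31, against 14.6% of all genes. By edgeR's quasi-likelihood test, 0 of the 31 passed the adjusted p of 0.01, as did 0.0233% of all genes (3 genes). At an adjusted p of 0.05, 1 of the 31 (Glrx5) was called, and it was lower, against 1.18% of all genes (0.915% lower and 0.264% higher). At an unadjusted p of 0.05, 13 were lower and 0 higher, against 13.1% and 11.4% of all genes. DESeq2 called 2 (Glrx5 and Cisd1) lower and 0 higher at an adjusted p of 0.01, against 2.28% lower and 0.809% higher among the genes it tested, and the same 2 were lower, against 2.24%, when it was run on the genes that edgeR tested. The members were picked with earlier results of this comparison known, so these counts describe the list.

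**Figure D1:**
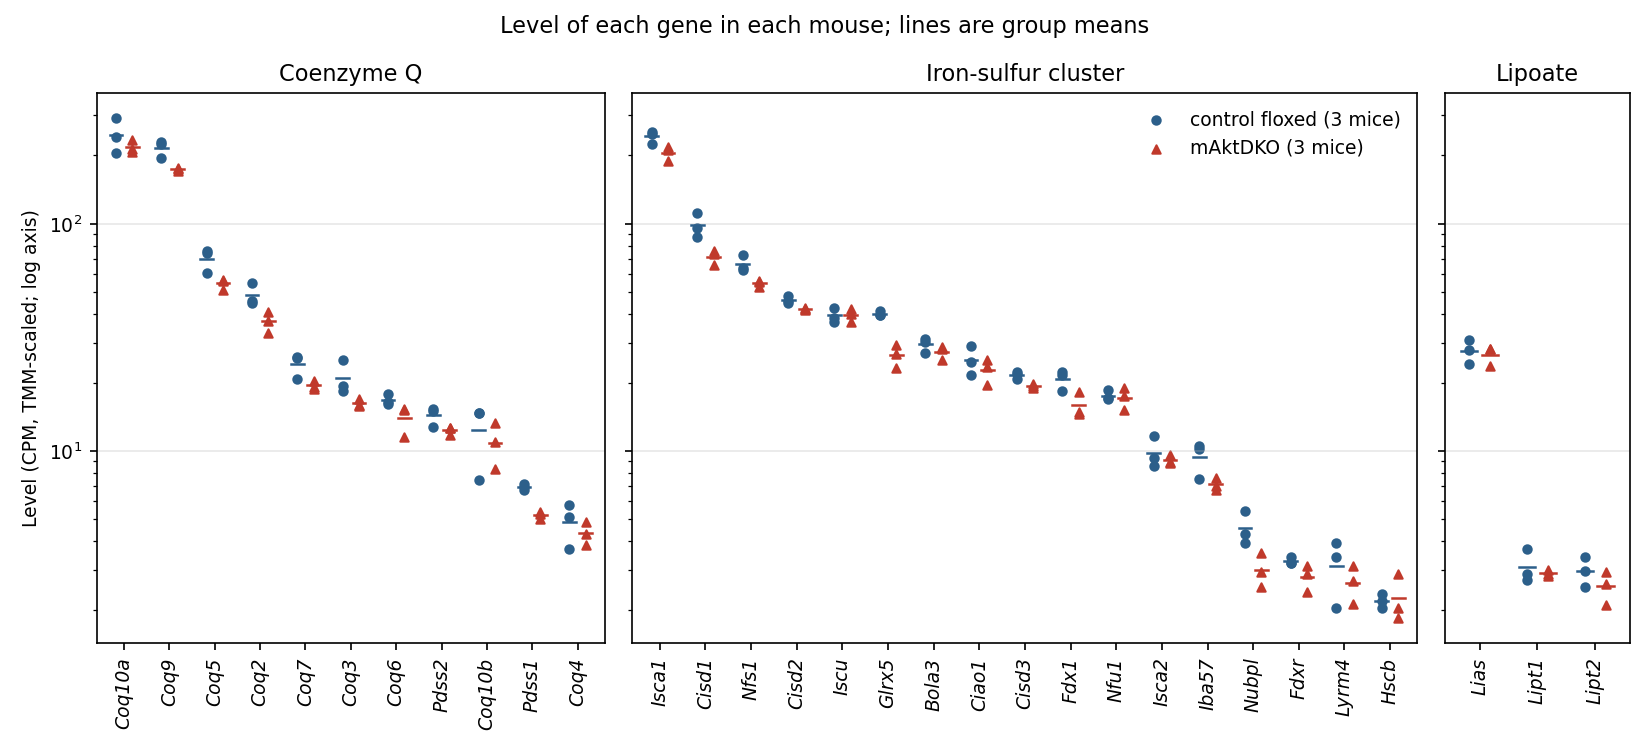
Level of each gene in each mouse in CPM scaled by TMM on a log axis, for 3 control floxed mice (blue circles) and 3 mAktDKO mice (red triangles), with lines at group means. Glrx5, Cisd1, Coq9 and Pdss1 show separated groups, while Iscu, Lias and Nfu1 show groups that lie over each other.

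The mAktDKO mice were close to each other in these genes, and the control mice less so. Averaged over the 31 genes, the log2 level relative to the control mean was -0.21, -0.27 and -0.21 in mAktDKO mice 1 to 3, and 0.053, 0.056 and -0.11 in control mice 2 to 4. The SD was 0.034 in the mAktDKO mice and 0.094 in the control mice. Control mouse 4 lay nearer to mAktDKO mice 1 and 3 than to the other control mice, and it was the lowest of the control mice in 20 of the 31 genes. Control mouse 2 was the highest of the control mice in 16 genes. Of the 21 genes with a mean of at least 10 CPM, 14 had every mAktDKO mouse lower, against 22.2% of all genes at that level. Of the 10 genes under 10 CPM, 3 did, against 8.73% of all genes at that level.

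Among the coenzyme Q genes, all 11 had a log2 fold change below 0, with the median at -0.31. In 8 of the 11 every mAktDKO mouse was lower than all control mice, as in 16.6% of all genes. edgeR called 0 of them at an adjusted p of 0.01 or 0.05, 6 were lower at an unadjusted p under 0.05 (13.1% of all genes), and DESeq2 called 0 at an adjusted p of 0.01. The average log2 level of the 11 genes was -0.25, -0.32 and -0.23 in the mAktDKO mice and 0.023, 0.088 and -0.11 in control mice 2 to 4, so that the groups did not overlap.

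The tail of coenzyme Q is made by an enzyme of Pdss1 and Pdss2 subunits. Pdss1 (chr2:22895522-22940266) had 5.39, 5.27 and 5.01 CPM in mAktDKO muscle and 6.92, 6.71 and 7.18 CPM in control muscle. The means of 5.22 ± 0.20 and 6.94 ± 0.24 CPM (SD, n = 3 per group) gave a log2 fold change of -0.41 (SE 0.13, edgeR adjusted p = 0.114). Both groups were tight and apart, at levels of a few CPM, and 9.44% of the exon bases of Pdss1 lie opposite other genes. Abi1 is among these, with a log2 fold change of 0.55 (edgeR adjusted p = 0.0681), and whether its reads entered the Pdss1 counts was not tested. Pdss2 had a log2 fold change of -0.22 (edgeR adjusted p = 0.260), and its groups, of 11.8 to 12.7 and 12.7 to 15.3 CPM, nearly touched. Coq2 (chr5:100654723-100675140) encodes the transferase that joins the tail to the ring. It had 41.1, 33.1 and 37.2 CPM in mAktDKO muscle and 54.7, 44.9 and 45.6 CPM in control muscle, or 37.1 ± 3.98 against 48.4 ± 5.51 CPM (SD, n = 3 per group). The log2 fold change of Coq2 was -0.38 (SE 0.11, edgeR adjusted p = 0.0967), without overlap between the groups. Of the 37-base windows of Coq2 transcripts, 11.1% were shared with other genes, Gm6728 sharing the most, so its estimate rests in part on how reads were divided.

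The ring is modified by the methyltransferases Coq3 and Coq5 and the hydroxylases Coq6 and Coq7, and all 4 were lower in every mAktDKO mouse than in any control mouse, as were 16.6% of all genes. Coq5 (chr5:115279666-115296972) had 56.7, 51.1 and 56.2 CPM against 75.6, 74.7 and 60.6 CPM, with means of 54.7 ± 3.12 and 70.3 ± 8.43 CPM (SD, n = 3 per group). This is a log2 fold change of -0.36 (SE 0.10, edgeR adjusted p = 0.0904, DESeq2 adjusted p = 0.0465). Control mouse 4 was the one nearest to the mAktDKO mice. Coq3 (chr4:21879673-21912162) had 17, 15.8 and 16 CPM against 19.3, 25.2 and 18.4 CPM, or 16.2 ± 0.66 against 21.0 ± 3.73 CPM (SD, n = 3 per group). On the log2 scale the difference was -0.37 (SE 0.13, edgeR adjusted p = 0.140), and control mouse 3 stood above the other control mice. Without it the log2 fold change of Coq3 was -0.22. Coq7 had a log2 fold change of -0.31 (edgeR adjusted p = 0.141) and Coq6 one of -0.27 (edgeR adjusted p = 0.236), or -0.14 without mAktDKO mouse 2.

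Coq9, a lipid-binding protein that presents the intermediate to Coq7, was among the most abundant of the 31 genes. It lies at chr8:94838321-94854895 and had 175, 171 and 177 CPM in mAktDKO muscle and 225, 229 and 194 CPM in control muscle. With means of 174 ± 3.08 and 216 ± 19.1 CPM (SD, n = 3 per group), the log2 fold change was -0.31 (SE 0.087, edgeR adjusted p = 0.0856, DESeq2 adjusted p = 0.0291). The mAktDKO mice differed little from each other, and control mouse 4 was the lowest of its group. Coq4, another subunit of the synthesis complex, had a log2 fold change of -0.16 (edgeR adjusted p = 0.645) with overlapping groups of 3.84 to 4.88 and 3.70 to 5.76 CPM. With 1 mouse left out the log2 fold change of Coq4 was between -0.32 and -0.023. Of its exon bases, 27.1% lie opposite Trub2, and the strand setting of the counting is not given in the sources used here.

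Coq10a and Coq10b bind coenzyme Q and are needed for its function rather than for its synthesis. Coq10a (chr10:128363100-128368997) had the highest level per kilobase of exon of the 31 genes, 90.1 CPM per kilobase. It had 208, 213 and 234 CPM in mAktDKO muscle and 291, 241 and 205 CPM in control muscle, and the groups overlapped through control mouse 4. The means of 218 ± 13.7 and 246 ± 43.0 CPM (SD, n = 3 per group) gave a log2 fold change of -0.17 (SE 0.13, edgeR adjusted p = 0.419), which was -0.032 without control mouse 2 and -0.29 without control mouse 4. Coq10b, at 2.41 CPM per kilobase, had a log2 fold change of -0.18 (edgeR adjusted p = 0.694), within ranges of 8.37 to 13.3 CPM and 7.48 to 14.7 CPM. With 1 mouse left out that of Coq10b was between -0.44 and -0.026. Neither gene differed beyond the spread between mice.

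**Figure D2:**
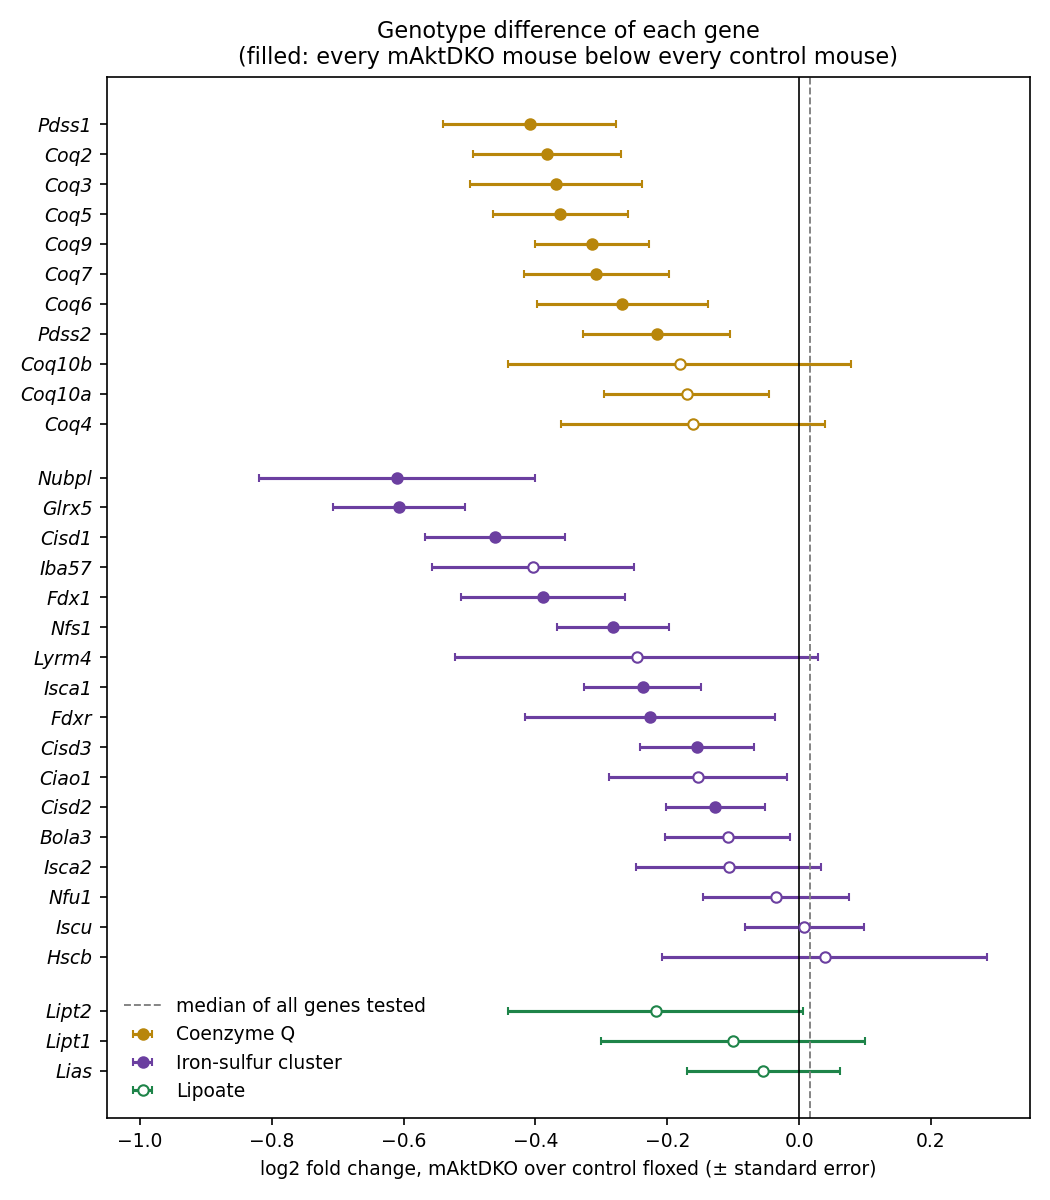
Log2 fold change of mAktDKO over control floxed mice with its standard error for each of the 31 genes, grouped by pathway (filled symbols, every mAktDKO mouse lower than all control mice). The coenzyme Q genes lie between -0.41 and -0.16, the iron-sulfur genes spread from -0.61 to 0.039, and the dashed line is the median of all genes tested, 0.017.

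Of the 17 iron-sulfur genes, 15 had a log2 fold change below 0, with the median at -0.23, and 9 of them had every mAktDKO mouse lower than all control mice (16.6% of all genes). By library totals 11 were lower and 6 higher, with a median of -0.084, while the median of all genes was 0.16. edgeR called 0 at an adjusted p of 0.01 and 1 lower at 0.05 (0.915% of all genes). At an unadjusted p of 0.05, 7 were lower (13.1% of all genes), and DESeq2 called 2 lower at an adjusted p of 0.01 (2.28%). The average log2 level was -0.20, -0.27 and -0.22 in the mAktDKO mice and 0.078, 0.033 and -0.11 in control mice 2 to 4. The genes with the largest differences belong to different steps, and the scaffold itself was not among them.

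Glrx5 (chr12:105032688-105042906), a glutaredoxin that takes the cluster from the scaffold and passes it on, had the smallest p of the 31 genes. It had 29.3, 23.2 and 26.7 CPM in mAktDKO muscle and 41.4, 39.7 and 39.6 CPM in control muscle. The level in the mAktDKO mice was 0.657 times that in the control mice, with means of 26.4 ± 3.04 and 40.2 ± 1.00 CPM (SD, n = 3 per group). On the log2 scale this was a difference of -0.61 (SE 0.10, edgeR adjusted p = 0.0396, DESeq2 adjusted p = 0.000521). All 3 control mice lay close together, far above the highest mAktDKO mouse, and none of its 37-base windows was shared with another gene. Without any 1 mouse the log2 fold change was between -0.69 and -0.52, and the edgeR adjusted p was between 0.0399 (without control mouse 4) and 0.198 (without mAktDKO mouse 2). With 1 mouse left out it stayed under 0.05 only without control mouse 2 or 4, and with all mice it was 0.0573 by edgeR on library totals. Hscb, the co-chaperone that acts at the same transfer step, had a log2 fold change of 0.039 (edgeR adjusted p = 0.938) at 29 to 42 counts per mouse.

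On the scaffold, the cysteine desulfurase Nfs1 provides sulfur with its partner Lyrm4, and Fdxr and ferredoxins such as Fdx1 are the electron chain. Nfs1 (chr2:156123639-156144186) had 55.9, 53.0 and 55.2 CPM in mAktDKO muscle and 72.9, 64.1 and 62.5 CPM in control muscle. Its means were 54.7 ± 1.55 and 66.5 ± 5.60 CPM (SD, n = 3 per group), with a log2 fold change of -0.28 (SE 0.085, edgeR adjusted p = 0.101). The groups were apart, and 9.28% of its 37-base windows were shared, Gm28036 sharing the most. Of the exon bases of Nfs1, 4.10% lie opposite Romo1, which had a log2 fold change of -0.78 (edgeR adjusted p = 0.0474). Whether Romo1 reads entered the Nfs1 counts was not tested. Fdx1 (chr9:51943306-51963556), a ferredoxin also known for steroid synthesis and lipoylation, had 18.2, 14.8 and 14.6 CPM against 21.6, 22.3 and 18.4 CPM. This was 15.9 ± 2.02 against 20.8 ± 2.10 CPM (SD, n = 3 per group), a log2 fold change of -0.39 (SE 0.12, edgeR adjusted p = 0.113). The highest mAktDKO mouse and the lowest control mouse nearly met. Fdxr and Lyrm4 had log2 fold changes of -0.23 (edgeR adjusted p = 0.482) and -0.25 (edgeR adjusted p = 0.601), both at 2.04 to 3.92 CPM, where counts limit the precision. With 1 mouse left out these were -0.31 to -0.15 for Fdxr and -0.48 to -0.053 for Lyrm4. The scaffold Iscu had 37.1, 40.1 and 42.0 CPM in mAktDKO muscle and 42.7, 38.7 and 37.1 CPM in control muscle. The difference was 0.0078 on the log2 scale (SE 0.090, edgeR adjusted p = 0.967), with groups that cover nearly the same range, and 16.5% of its 37-base windows were shared with Gm16437 and other genes.

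All 6 genes that finish and deliver clusters in mitochondria were lower, at a median of -0.17 on the log2 scale, against 47.5% of all genes below 0, and 2 of the 6 had every mAktDKO mouse lower, against 16.6% of all genes. By library totals Isca2, Nfu1 and Bola3 turned above 0. Isca1 (chr13:59755409-59769810), which with Isca2 and Iba57 serves the assembly of cubane clusters, had 217, 189 and 212 CPM in mAktDKO muscle and 253, 249.7 and 225 CPM in control muscle. With 206 ± 15.2 against 243 ± 15.0 CPM (SD, n = 3 per group), the log2 fold change was -0.24 (SE 0.089, edgeR adjusted p = 0.152). The groups did not overlap, and 16% of its 37-base windows were shared, AK157302 sharing the most. Iba57 had a log2 fold change of -0.40 (edgeR adjusted p = 0.154) and Isca2 one of -0.11 (edgeR adjusted p = 0.664), and the groups overlapped in both. Nubpl (chr12:52097737-52312744), which is needed for the clusters of complex I, had 2.92, 2.52 and 3.57 CPM against 5.45, 4.30 and 3.93 CPM. Its means of 3.00 ± 0.53 and 4.56 ± 0.79 CPM (SD, n = 3 per group) gave a log2 fold change of -0.61 (SE 0.21, edgeR adjusted p = 0.131). At 42 to 78 counts per mouse it had the lowest level per kilobase of the 31 genes, 0.763 CPM. Nfu1 and Bola3, which deliver clusters to lipoate synthase among others, had log2 fold changes of -0.035 (edgeR adjusted p = 0.872) and -0.11 (edgeR adjusted p = 0.501) with overlapping groups. Ciao1, a platform of cytosolic assembly, had one of -0.15 (edgeR adjusted p = 0.502). With 1 mouse left out that of Ciao1 was between -0.25 and -0.038, and by library totals it was -0.014.

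The CDGSH proteins hold a redox-active cluster, Cisd1 on the outer mitochondrial membrane, Cisd2 mainly on the endoplasmic reticulum and Cisd3 in the matrix. Cisd1 (chr10:71330480-71344954) had 76.0, 65.7 and 73.5 CPM in mAktDKO muscle and 112, 96.3 and 87.9 CPM in control muscle. The level in the mAktDKO mice was 0.726 times that in the control mice, from means of 71.7 ± 5.35 and 98.8 ± 12.3 CPM (SD, n = 3 per group). The log2 fold change was -0.46 (SE 0.11, edgeR adjusted p = 0.0608, DESeq2 adjusted p = 0.00661), and every control mouse lay above the mAktDKO mice. Cisd2 and Cisd3 had log2 fold changes of -0.13 (edgeR adjusted p = 0.316) and -0.16 (edgeR adjusted p = 0.291). Their groups did not overlap either, but the differences were small, with 41.9 to 42.5 against 44.9 to 48.2 CPM for Cisd2, whose log2 fold change turned to 0.011 by library totals. Cisd1 had the highest level per kilobase among the iron-sulfur genes, 78.6 CPM, followed by Cisd3 at 24.5 and Isca1 at 21.0.

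The 3 lipoate genes had small differences with overlapping groups. Lias, the synthase that inserts sulfur, had a log2 fold change of -0.054 (SE 0.12, edgeR adjusted p = 0.801) at 23.5 to 28.0 against 24.2 to 30.7 CPM. Lipt2, which loads the octanoyl precursor, and Lipt1, which transfers lipoate to the dehydrogenases, had log2 fold changes of -0.22 (SE 0.22, edgeR adjusted p = 0.568) and -0.10 (SE 0.20, edgeR adjusted p = 0.785). With 1 mouse left out that of Lipt2 was between -0.34 and -0.095. edgeR gave 0 of the 3 an unadjusted p under 0.05, and DESeq2 called 0 of the 2 for which it gave an adjusted p. Of all genes, 31.1% had groups without overlap and 13.1% were lower at an unadjusted p of 0.05, and 3 genes are too few to be told apart from these shares. The median was -0.10, and it was -0.052 without control mouse 2 and -0.15 without control mouse 4. Scaled by library totals instead of TMM it turned to 0.042, while the median of all genes moved from 0.017 to 0.16, so that relative to all genes it was -0.12 by TMM and -0.11 by library totals.

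Within a mouse, the ratio of related genes does not depend on scaling. The log2 ratio of Cisd1 to Cisd2 was 0.86, 0.63 and 0.79 in the mAktDKO mice and 1.3, 1.1 and 0.87 in the control mice. Its difference was -0.33, with every mAktDKO mouse lower (exact permutation test, two-sided p = 0.1, adjusted p = 0.2 over 4 ratios). That of Pdss1 to Pdss2 was -1.24 ± 0.011 against -1.04 ± 0.19 (SD, n = 3 per group), a difference of -0.20 (exact permutation p = 0.1, adjusted p = 0.2). These are the smallest p that 3 mice against 3 allow. Isca1 to Isca2 differed by -0.14 (exact permutation p = 0.3, adjusted p = 0.4) and Coq10a to Coq10b by -0.017 (exact permutation p = 1).

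Other genes of the same pathways, listed by function, were examined next, with at most the 3 of the smallest p named from each list. The lists were assembled with earlier results known and are described by counts. Of 7 other coenzyme Q genes, 6 were lower, the median was -0.26 on the log2 scale, and 4 had every mAktDKO mouse lower, as in 16.6% of all genes. Without mAktDKO mouse 1 this median was -0.43. Among them, Adck3 (now Coq8a), an atypical kinase that supports the complex, had 539, 501 and 555 CPM in mAktDKO muscle and 884, 652 and 598 CPM in control muscle, with a log2 fold change of -0.42 (edgeR adjusted p = 0.127), or -0.23 without control mouse 2. Pptc7, a mitochondrial phosphatase, had one of -0.26 (edgeR adjusted p = 0.10), and Adck1 one of -0.38 (edgeR adjusted p = 0.101). Of 6 enzymes that reduce coenzyme Q from other substrates, 4 were lower with a median of -0.16, led by the sulfide oxidoreductase Sqrdl (now Sqor) at -0.43 (edgeR adjusted p = 0.130). This median of -0.16 moved when single mice were left out, to -0.25 without mAktDKO mouse 1, -0.097 without mAktDKO mouse 2, -0.030 without control mouse 2 and -0.28 without control mouse 4, and was -0.018 by library totals.

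Among 10 other mitochondrial iron-sulfur genes, 9 were lower, their median was -0.31 on the log2 scale, and 6 had every mAktDKO mouse lower (16.6% of all genes). By library totals 6 were lower and 4 higher, with a median of -0.17. Ndufab1, the acyl carrier protein that joins both iron-sulfur cluster assembly and fatty acid synthesis, had 47.3, 42.1 and 44.2 CPM in mAktDKO muscle and 66.2, 69.2 and 57.4 CPM in control muscle. Ndufab1 thus differed by -0.53 on the log2 scale (SE 0.095, edgeR adjusted p = 0.0474). With 1 mouse left out, the edgeR adjusted p of Ndufab1 was between 0.0361 (without control mouse 4) and 0.224 (without mAktDKO mouse 2), and by library totals it was 0.0718. Bola1 had one of -0.67 (edgeR adjusted p = 0.0573) and the sulfhydryl oxidase Gfer one of -0.43 (edgeR adjusted p = 0.0725). In cytosolic assembly, 8 of 10 genes were lower with a median of -0.18, and 2, Fam96a (now Ciao2a, -0.37, edgeR adjusted p = 0.0616) and Narfl (now Ciao3, -0.45, edgeR adjusted p = 0.0745), had every mAktDKO mouse lower, a share near the 16.6% of all genes. By library totals 7 of these 10 genes were lower and 3 higher, with a median of -0.041.

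Genes of the proteins that receive these cofactors were examined last. Of 25 iron-sulfur client genes tested, 20 were lower with a median of -0.21, and 7 had every mAktDKO mouse lower (16.6% of all genes). They were led by the Rieske protein Uqcrfs1 (-0.53, edgeR adjusted p = 0.0474) and the complex I subunits Ndufv1 (-0.61, edgeR adjusted p = 0.0474) and Ndufs7 (-0.52, edgeR adjusted p = 0.0506). Without control mouse 2 this median was -0.11 (16 lower, 9 higher), and by library totals it was -0.068 (14 lower, 11 higher). The 11 lipoylated enzymes and partners tested were all lower with a median of -0.22, and 7 had every mAktDKO mouse lower (16.6% of all genes). By library totals 8 of them were lower and 3 higher, with a median of -0.080, and without control mouse 2 the count was 9 lower and 2 higher. Pdhx, the component that anchors the third enzyme of pyruvate dehydrogenase, had the smallest p of them, with a log2 fold change of -0.47 (edgeR adjusted p = 0.0432). With 1 mouse left out, the highest edgeR adjusted p was 0.227 for Uqcrfs1, 0.234 for Ndufv1 and 0.220 for Pdhx, each without mAktDKO mouse 2, and by library totals these genes had 0.0603, 0.0557 and 0.0788. The 7 genes of mitochondrial fatty acid synthesis, the source of the lipoate precursor, had a median of -0.33 (-0.20 without control mouse 2), and 6 were lower, while by library totals 4 were lower and 3 higher with a median of -0.19.

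**Figure D3:**
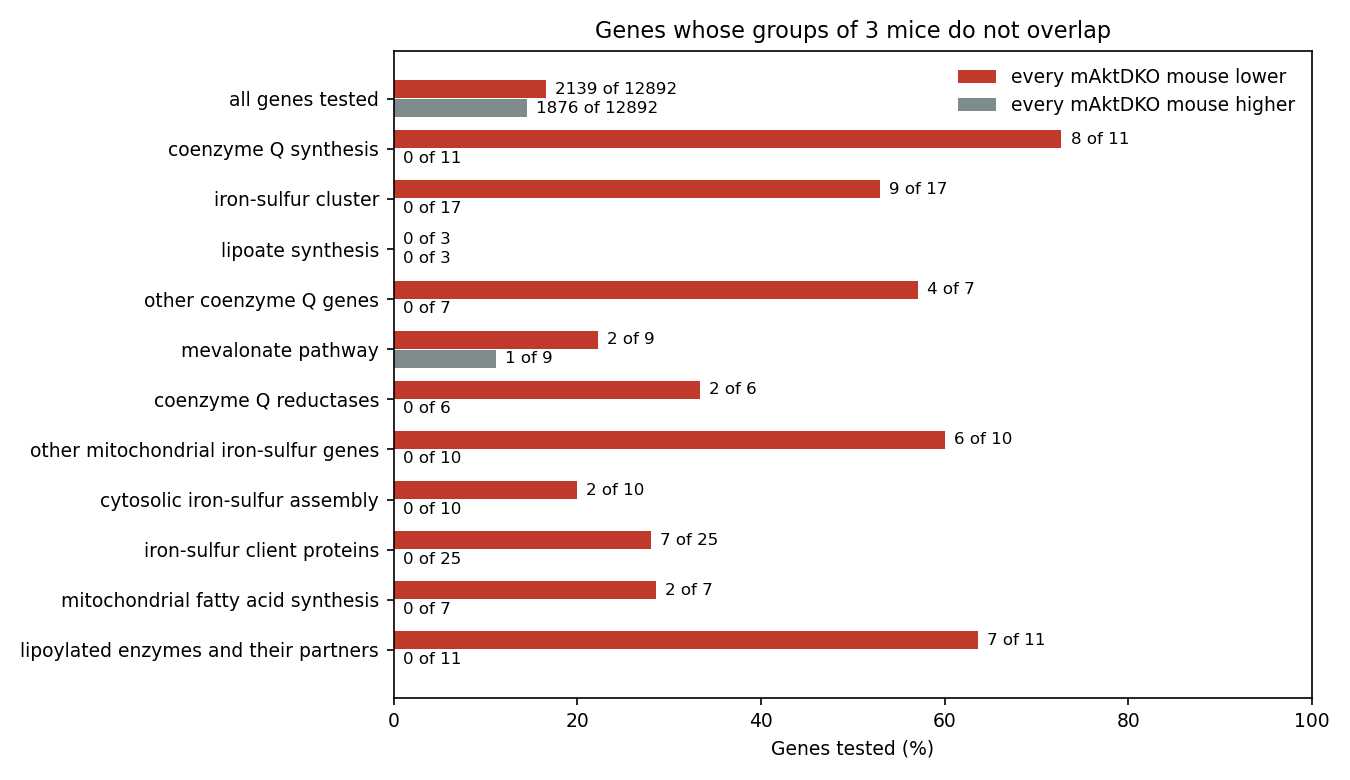
Percent of the genes tested in each list in which every mAktDKO mouse lay below (red) or above (grey) every control mouse, with the numbers of genes. Coenzyme Q genes had 8 of 11 lower, iron-sulfur genes 9 of 17 and lipoate genes 0 of 3, against 2139 of 12892 among all genes.

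Markers of cell types are given beside these values. In whole muscle RNA, fewer cells of a type and less RNA per cell cannot be told apart. All 10 fast-fibre markers were detected and lower, at a median of -0.22 on the log2 scale with every mAktDKO mouse lower in 7 of 10 (16.6% of all genes), and their summed level was 130780 to 145520 CPM in mAktDKO muscle and 150300 to 162750 CPM in control muscle. The fast myosin Myh4 had a log2 fold change of -0.018 (edgeR adjusted p = 0.944) and Myh1 one of -0.51 (edgeR adjusted p = 0.0539). Myh2 had the lowest of the fast-fibre list, -0.79 (edgeR adjusted p = 0.125). Its levels were 3019.3, 3463.3 and 4049.3 CPM in mAktDKO mice 1 to 3 and 9176.5, 4440 and 4624 CPM in control mice 2 to 4. Slow-fibre markers were higher in 6 of 7, with a median of 0.44 and summed levels of 680 to 1317 against 607 to 884 CPM. Fibro-adipogenic progenitor markers were higher in 5 of 5 (median 0.57, 18280 to 21736 against 7284 to 18401 CPM, every mAktDKO mouse higher in 2), macrophage and leukocyte markers in 6 of 6 (median 0.44, 94.6 to 118 against 62.4 to 103 CPM, every mAktDKO mouse higher in 3, against 14.6% of all genes) and adipocyte markers in 5 of 5 (median 1.00, 51.5 to 151 against 40.0 to 84.5 CPM). Endothelial markers were higher in 4 of 5 (404 to 470 against 334 to 434 CPM), smooth muscle and mural markers in 3 of 4 (486 to 573 against 430 to 506 CPM), Schwann cell markers in 4 of 4 (234 to 319 against 213 to 251 CPM) and satellite cell markers in 3 of 3 (6.47 to 8.03 against 5.75 to 6.27 CPM). None of these markers was at 0, and edgeR called 0 of them at an adjusted p of 0.05. At an unadjusted p of 0.05, 4 fast-fibre markers were lower (13.1% of all genes), and 5 adipocyte markers, 3 macrophage and leukocyte markers and 1 or 2 of each remaining list were higher (11.4% of all genes). DESeq2 at an adjusted p of 0.01 called 3 fast-fibre markers lower (2.28% of the genes it tested), Myh1 (DESeq2 adjusted p = 2.09e-06), Tnni2 (0.00013) and Tnnc2 (0.000521), and 1 fibro-adipogenic progenitor marker higher, Dcn (0.000346), against 0.809% of the genes it tested. Their part in the values of the 31 genes was not tested.

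**Figure D4:**
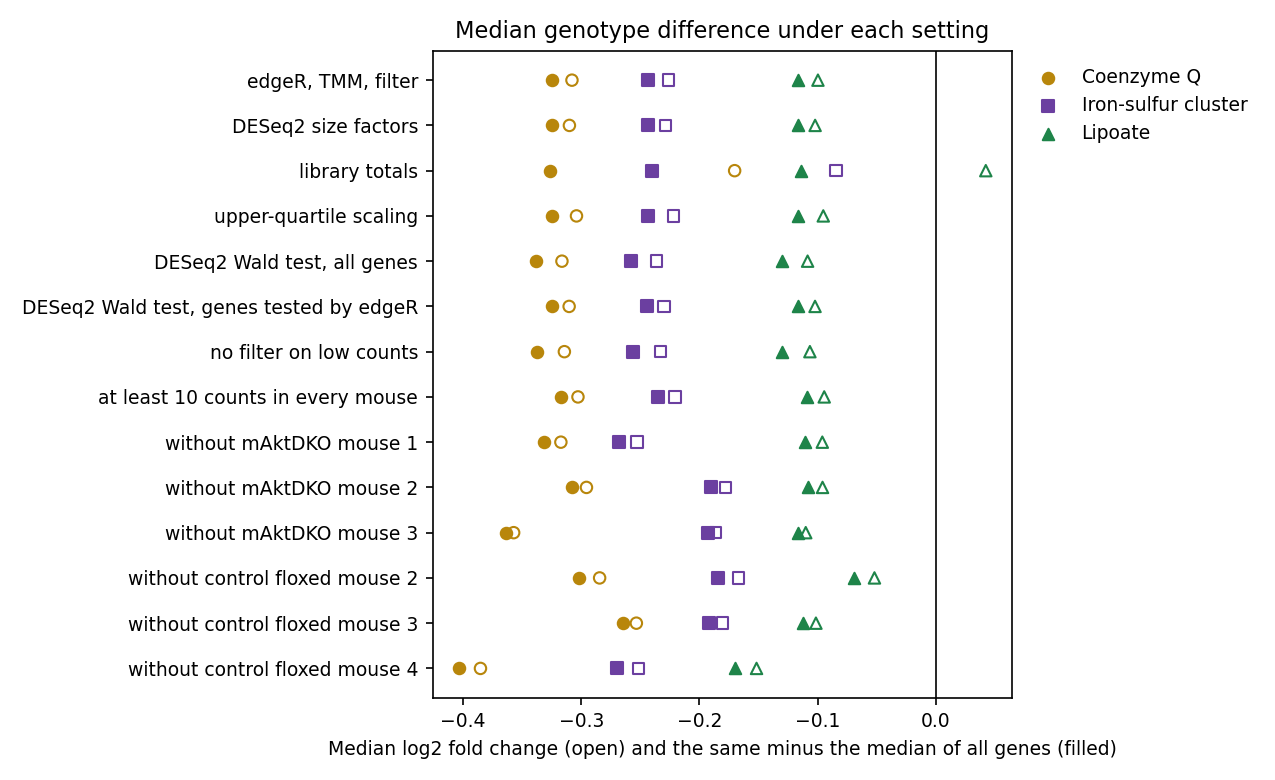
Median log2 fold change of the coenzyme Q, iron-sulfur and lipoate genes under each setting (open symbols), and the same minus the median of all genes (filled symbols). The filled symbols stay left of 0 in every setting shown, and the open symbols move to the right under library totals, where the lipoate median is 0.042.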

How the data were processed

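EDL RNA of 3 mAktDKO mice and 3 control floxed mice was analysed. The authors depleted rRNA, made directional libraries, sequenced them as paired-end reads of 37 bases, mapped these to mm10 with STAR (2.6.1b in the submitters' processing notes) and counted genes with RSEM 1.3.1. Values were deposited as RSEM's estimated counts (expected counts), unscaled. From them, rounded to whole numbers, edgeR 4.0.16 in R 4.3.3 was run over all genes (filterByExpr with minimum count 10, TMM, quasi-likelihood test, Benjamini-Hochberg adjustment over 12892 genes, called at an adjusted p of 0.01). The standard error is the log2 fold change divided by the square root of F. Alternatives were DESeq2 1.42.0, other scalings, filters and thresholds, and leaving out each mouse. Steps were tested on simulated data. Exon bases, overlaps and shared windows of 37 bases come from the reference annotation of mm10, and promoters from RefSeq. All 31 genes are named, those with the 10 smallest p and the 4 highest CPM with full values, and from each other list at most 3. Members and lists were chosen with earlier results of these data known. A mAktDKO column matches 1 labelled sample, and a control column matches the group. The result of 1 gene that this rule names in the other lists is not reported here.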

Additional observations from a re-analysis of the deposited data

How the results depend on the processing

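No coenzyme Q gene among the 31 genes changed direction under any alternative run. Of the 7 other coenzyme Q genes, 5 were lower and 2 higher by library totals, against 6 and 1 by TMM. Over the alternatives that keep all mice, 228 values of single members kept direction and side of the threshold, 5 passed it newly and 7 changed direction. The alternative with an adjusted p of 0.05 used the main fit, so no direction could change there. By library totals the median log2 fold change was -0.084 for the 31 genes (23 lower, 8 higher), -0.17 for coenzyme Q, -0.084 for iron-sulfur and 0.042 for lipoate genes. The median of all genes was then 0.16, and relative to it these medians were -0.24, -0.33, -0.24 and -0.11, against -0.24, -0.33, -0.24 and -0.12 by TMM. Library totals turned Isca2 to 0.031, Nfu1 to 0.10, Bola3 to 0.031, Cisd2 to 0.011, Lias to 0.082 and Lipt1 to 0.042, and DESeq2 turned Iscu to -0.00071. The genes called over the whole table were 328 by DESeq2 (242 lower, 86 higher), 321 by DESeq2 on the genes that edgeR tested (227 lower, 94 higher), 32 without the filter on low counts and 152 at an adjusted p of 0.05, against 3. Of the 31 genes, DESeq2 called 2 on either set of genes and edgeR at 0.05 called 1, all in iron-sulfur genes. By library totals the medians of the other lists also moved, to -0.12 for other coenzyme Q genes, 0.22 for the mevalonate pathway, -0.17 for other mitochondrial iron-sulfur genes, -0.041 for cytosolic assembly, -0.19 for mitochondrial fatty acid synthesis and -0.080 for lipoylated enzymes and partners. TMM multiplies each library total by a factor, which library totals alone leave out. The factors were 1.07, 1.09 and 0.987 in mAktDKO mice 1 to 3 and 0.927, 0.971 and 0.963 in control mice 2 to 4. Why the factors differ between the groups was not tested.

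Without any 1 mouse the calls were 0 to 8 over all genes (8 without control mouse 2) and 0 in the 31 genes. The median stayed between -0.29 and -0.19 for the 31 genes, -0.39 and -0.25 for coenzyme Q, -0.25 and -0.17 for iron-sulfur and -0.15 (without control mouse 4) and -0.052 (without control mouse 2) for lipoate genes. The genes in which every mAktDKO mouse was lower then numbered 17 to 21 of 31 (19% to 22.6% of all genes). Groups separate more easily with fewer mice, so this count could hardly fall below that with all mice and does not measure stability. At an adjusted p of 0.05, 3 members (Coq5, Glrx5 and Cisd1) were called without control mouse 4, with 388 genes in all, and 1 (Glrx5) without control mouse 2, with 145 genes in all. Leaving out 1 mouse gave log2 fold changes of -0.20 to 0.032 for Isca2, -0.048 to 0.067 for Iscu, -0.19 to 0.16 for Hscb, -0.12 to 0.047 for Nfu1, -0.14 to 0.030 for Lias and -0.19 to 0.052 for Lipt1. Akt2 did not pass the adjusted p of 0.01 without mAktDKO mouse 1, 2 or 3, with an edgeR adjusted p of up to 0.0208. The differences of log2 ratios were -0.30 to 0.44 for Coq10a to Coq10b, -0.26 to -0.088 for Pdss1 to Pdss2, -0.25 to -0.078 for Isca1 to Isca2 and -0.44 to -0.22 for Cisd1 to Cisd2. The counts of non-overlapping groups without 1 mouse and the settings of the other lists were chosen after seeing the data. No paired analysis was possible because mice of the control group are numbered 2 to 4 in the table and 1 to 3 in the labels. Genes under 10 CPM rest on few counts, which limits what a difference can show.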

Other observations

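The mevalonate pathway, which makes the precursors of the coenzyme Q tail and of cholesterol, did not move in 1 direction. Of 9 genes tested, 4 were lower and 5 higher, the median was 0.077 on the log2 scale, and Idi2 did not pass the filter on low counts. Ggps1, which makes geranylgeranyl diphosphate for protein prenylation, had 13.8, 14.0 and 14.6 CPM in mAktDKO muscle and 10.5, 10.1 and 10.1 CPM in control muscle. The log2 fold change of Ggps1 was 0.47 (SE 0.099, edgeR adjusted p = 0.0557), and every mAktDKO mouse was higher. By library totals it was 0.61 (edgeR adjusted p = 0.0444), and with 1 mouse left out the edgeR adjusted p was between 0.0677 and 0.234. Pmvk, phosphomevalonate kinase, had 6.40, 5.51 and 5.28 CPM against 9.51, 8.90 and 7.64 CPM, a log2 fold change of -0.60 (SE 0.14, edgeR adjusted p = 0.0684). The sign of the median was not stable, at -0.0089 without mAktDKO mouse 1 and -0.012 without control mouse 3.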
